A study of Mus with 35 samples.

Results

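Oligodendrocyte precursor genes are described here across all 35 brain libraries of a study of antisense treatment in Hnrnph2 mutant mice. The 10 genes are Pdgfra, Cspg4, Vcan, Lhfpl3, Olig1, Olig2, Sox10, Gpr17, Neu4 and Bmp4. They were taken by symbol, as genes known to mark these cells, and were chosen with earlier results of these data known. All 10 were found among the 55573 gene rows of the deposited table. Each passed the filter on low values, a mean of at least 1 TPM, so no gene of the list was left out. TPM is an abundance per transcript length, with 1 common total for all libraries, so levels can be compared between genes.

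Hnrnph2 encodes an RNA-binding protein and lies on the X chromosome. The mice were male C57BL/6J animals that were either wild type (WT) or hemizygous for the P209L or the R206W allele of Hnrnph2. How the alleles were made is not given in the sources used here. Every animal, controls included, had received 1 injection of 30 µg of an antisense oligonucleotide (ASO) into the brain ventricles at postnatal day 2 to 4. An ASO is a short synthetic nucleic acid that binds a chosen RNA. It was either a control ASO or an ASO against Hnrnph2, so no uninjected group entered any comparison. The 3 cohorts were a P209L cohort collected at 8 weeks of age, a P209L cohort collected at 3 weeks and an R206W cohort collected at 3 weeks. Each cohort held 4 groups, WT and mutant with either ASO. There were 3 libraries in a group, but only 2 for P209L mice that had the Hnrnph2 ASO and were collected at 3 weeks. The titles give a different animal name for each library, but the labels do not state outright that each library is a separate animal. The p-values thus measure only the spread between these libraries, which may be technical.

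Oligodendrocyte precursor cells are the dividing glial cells that give rise to the myelin-forming oligodendrocytes of the brain. Signalling through the PDGF receptor alpha keeps them dividing, and the transcription factors Olig1, Olig2 and Sox10 hold the lineage through to the myelinating stage. As a precursor leaves the cycle it passes through a short committed stage marked by Gpr17 and switches on premyelinating and then myelin genes. In mouse brain most myelin is laid down during the first weeks after birth, and precursors remain throughout adult life.

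The targeted transcript separated the libraries by ASO. Hnrnph2 was at 88.2 to 116.82 TPM (median 102.13, n = 18) with the control ASO and at 6.95 to 26.68 TPM (median 18.51, n = 17) with the Hnrnph2 ASO. Between 16235 and 16649 genes reached 1 TPM in a library. TPM holds no read totals, so sequencing depth is unknown and no counting error can be given. The labels name whole brain in one place and dissected cortex in another. Markers of cerebellar neurons were detected in every library, with a summed level over 12 genes of 683.65 to 1162.1 TPM at 8 weeks, 815.12 to 1084 TPM in the P209L cohort at 3 weeks and 1093.9 to 1829 TPM in the R206W cohort.

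Among the 10 genes the level was highest for Olig1 in every cohort. In the P209L cohort at 3 weeks the order by median TPM was Olig1 (182.39), Gpr17 (72.04), Sox10 (61.4), Olig2 (36.35), Lhfpl3 (30.92), Pdgfra (20.6), Cspg4 (12.13), Vcan (11.34), Neu4 (9.09) and Bmp4 (9.07). Gpr17 and Sox10 overlapped in range, as did Olig2 with Lhfpl3, Cspg4 with Vcan, and Vcan with Neu4. At 8 weeks Gpr17 had moved from the second place to the fifth, with a median of 24.64 TPM, behind Sox10, Lhfpl3 and Olig2. Its range there overlapped those of all 3. Neu4 and Bmp4 were the lowest pair at both ages, and their ranges overlapped.

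**Figure D1:**
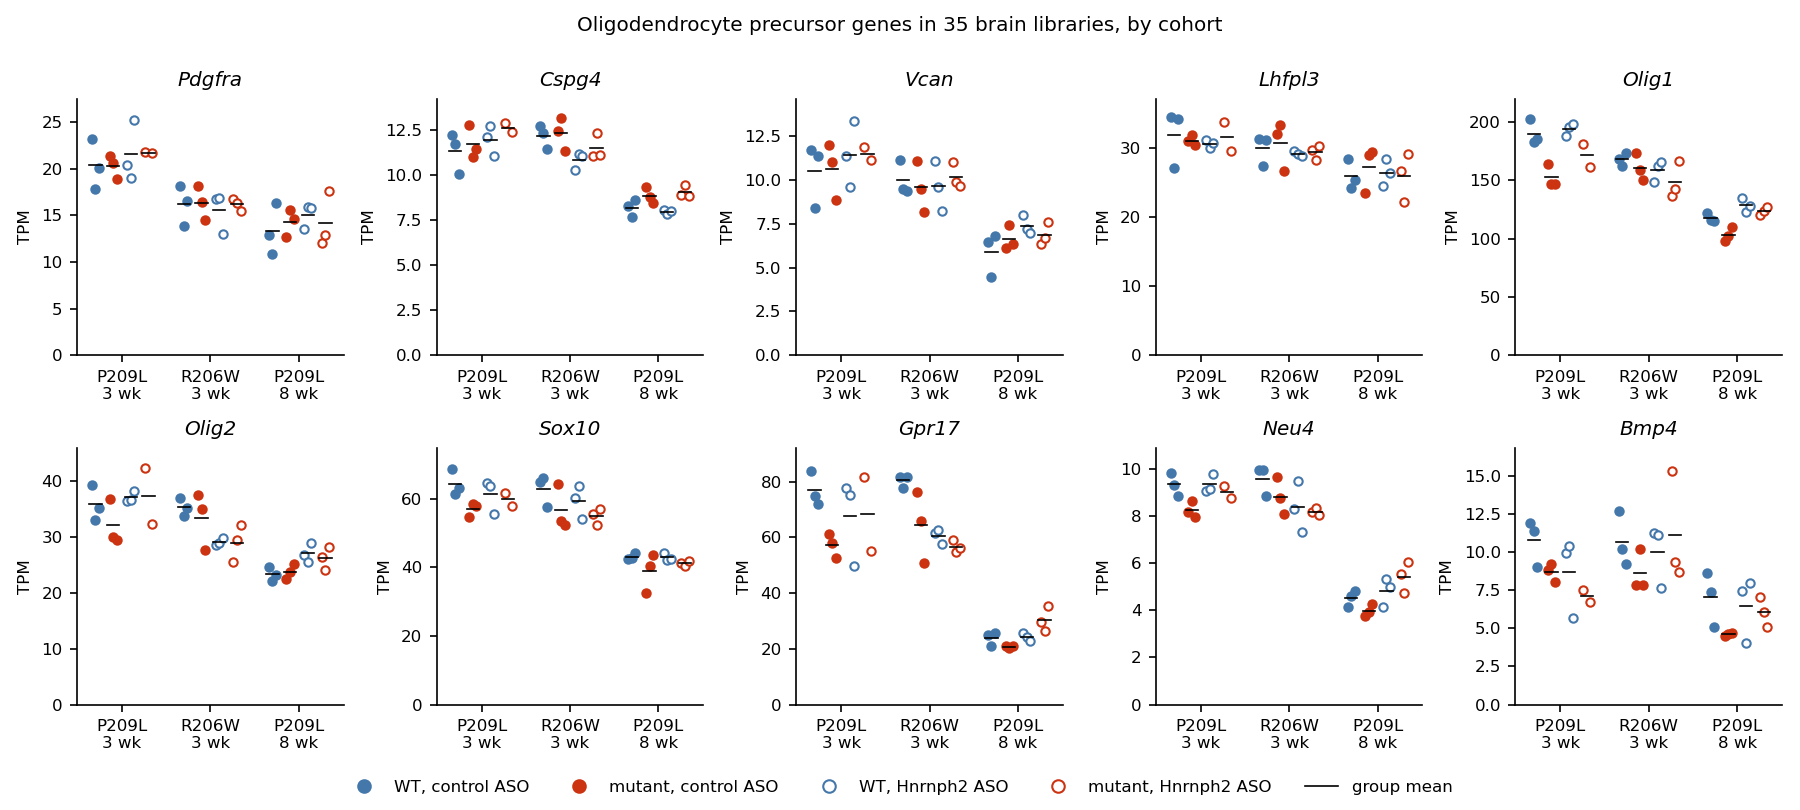
TPM of each gene (y axis, starting at 0) in every library, grouped on the x axis by cohort. Points are libraries, filled for control ASO and open for Hnrnph2 ASO, blue for WT and red for mutants, and black lines are group means. The 8-week libraries lie below the 3-week libraries of the P209L cohort without overlap for 8 of the 10 genes, and Gpr17 shows the widest gap.

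All 10 genes were lower at 8 weeks than at 3 weeks in the P209L cohorts, averaged over both genotypes and both ASOs. Gpr17, an orphan receptor of committed precursors, fell the most, from a mean of 67.61 to 24.89 TPM. Lhfpl3, a membrane protein gene enriched in precursors, fell the least, from 31.25 to 26.35 TPM. Age differences were taken as 8 weeks minus 3 weeks on log2(TPM + 1), and genes with an adjusted p under 0.05 were called, over all 16556 genes tested (limma, two-sided, Benjamini-Hochberg adjustment). By this rule 26.6% of all genes were called lower at 8 weeks and 15.5% higher. The median difference of the 10 genes was -0.54 on the log2 scale, against -0.03 over all genes tested. The 2 ages were collected as separate cohorts, so age and cohort cannot be told apart. In bulk tissue, fewer cells of a type and less RNA per cell cannot be told apart either.

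Pdgfra encodes the receptor through which PDGF drives precursor division. Its level ran from 10.85 to 17.65 TPM at 8 weeks (median 14.1, n = 12) and from 17.85 to 25.21 TPM in the P209L cohort at 3 weeks (median 20.6, n = 11). The ranges did not overlap (log2 difference -0.54, SE 0.072, limma adjusted p 1.24e-06). Cspg4 encodes the NG2 proteoglycan on the precursor surface. It was at 7.69 to 9.46 TPM at 8 weeks and 10.07 to 12.89 TPM at 3 weeks, again without overlap (log2 difference -0.44, SE 0.037, adjusted p 4.21e-10 by limma).

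Vcan encodes versican, a large proteoglycan of the extracellular matrix. It fell from 8.4 to 13.34 TPM at 3 weeks (median 11.34) to 4.47 to 7.98 TPM at 8 weeks (median 6.73), with a log2 difference of -0.64 (SE 0.073, limma adjusted p 8.4e-08). Lhfpl3 was at 22.09 to 29.41 TPM at 8 weeks and 27.07 to 34.35 TPM at 3 weeks, so its ranges overlapped. Its log2 difference of -0.24 (SE 0.051, adjusted p 0.000468 by limma) was the smallest of the 10, and 12.9% of all tested genes had a lower value than it. Pdgfra also marks leptomeningeal fibroblasts, and Cspg4 also marks pericytes. Of 10 markers of vascular leptomeningeal cells, 5 were called higher at 8 weeks and 3 lower. For 10 markers of pericytes and smooth muscle the counts were 4 and 4. Summed levels of the first list were 147.35 to 202.78 TPM at 8 weeks and 136.79 to 221.47 TPM in the P209L cohort at 3 weeks. The second list summed to 172.99 to 199.6 TPM and 129.14 to 214.2 TPM. No marker of either list was at 0 in every library, and their part in the falls of Pdgfra and Cspg4 was not tested.

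All 3 lineage transcription factors were lower at 8 weeks. Olig1 was at 97.61 to 134.31 TPM at 8 weeks (median 121.12) and 146.95 to 201.99 TPM in the P209L cohort at 3 weeks (median 182.39). Every 8-week library was below every 3-week library (log2 difference -0.58, SE 0.036, limma adjusted p 1.03e-12). Olig2, the partner gene that specifies the lineage, was at 22.1 to 28.85 TPM and 29.53 to 42.34 TPM, also without overlap (log2 difference -0.48, SE 0.054, limma adjusted p 5.58e-08). Sox10, which acts with them on myelin genes, was at 32.58 to 44.28 TPM and 54.7 to 68.82 TPM, a log2 difference of -0.54 (SE 0.044, limma adjusted p 2.35e-10).

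Among the genes of later precursors, Gpr17 stood at 20.26 to 35.42 TPM at 8 weeks (median 24.64) and at 49.91 to 83.8 TPM in the P209L cohort at 3 weeks (median 72.04). Its log2 difference was -1.40 (SE 0.074, limma adjusted p 5.17e-14), the 12th lowest of the 16556 genes tested. The Gpr17 locus overlaps Lims2 in RefSeq, so reads could be shared if the counting did not use strand, a setting not given in the sources used here. Lims2 was itself called lower at 8 weeks (log2 difference -0.44, SE 0.077, limma adjusted p 3.95e-05). Neu4 encodes a sialidase. It was at 3.77 to 6.04 TPM at 8 weeks and 7.97 to 9.86 TPM at 3 weeks, a log2 difference of -0.82 (SE 0.045, limma adjusted p 1.1e-13). Bmp4 encodes a secreted ligand whose signal holds back oligodendrocyte maturation. Its 4.02 to 8.65 TPM at 8 weeks overlapped the 5.71 to 11.93 TPM at 3 weeks, and it had the widest error of the 10 (log2 difference -0.49, SE 0.114, limma adjusted p 0.00108).

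Of the 10 genes, 8 had every library of the 8-week cohort below every library of the P209L cohort at 3 weeks. The exceptions were Bmp4 and Lhfpl3. Over all genes tested, 3.55% were lower without overlap in this way. Against the 12 libraries of the R206W cohort at 3 weeks, the count was 6 (Cspg4, Olig1, Sox10, Gpr17, Neu4 and Vcan), where 4.68% of all genes did the same. Pdgfra was among those lost: its R206W cohort range of 13.04 to 18.17 TPM reached into the 8-week range.

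**Figure D2:**
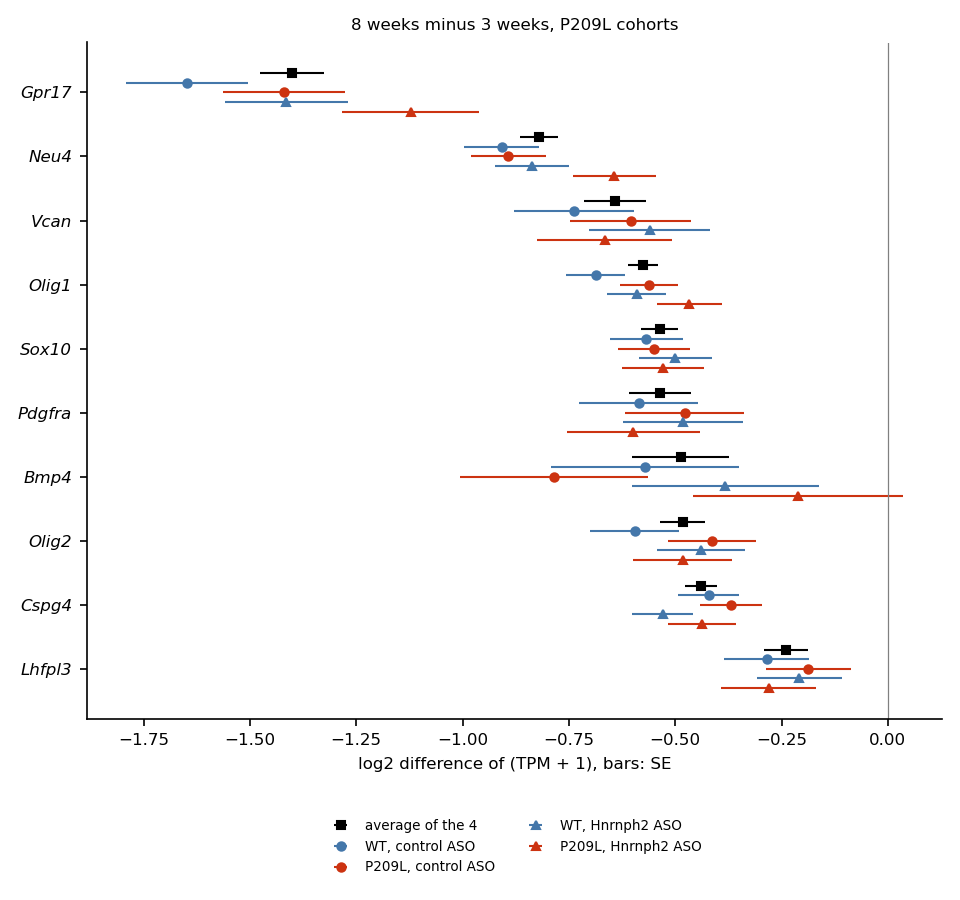
Difference between 8 and 3 weeks in the P209L cohorts, in log2(TPM + 1) on the x axis, for each gene on the y axis. Squares are the average and the other symbols the 4 genotype and ASO groups, with bars of 1 SE, and every symbol lies left of 0. The average runs from -1.40 for Gpr17 to -0.24 for Lhfpl3.

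The age difference was then taken separately in each genotype and ASO, where 3 libraries at 8 weeks were set against 3 or 2 at 3 weeks. All 10 genes had a negative value in each of the 4 groups. In WT with the control ASO, 8 genes were called lower, where 8.66% of all genes were. In P209L with the control ASO 9 were called (6.23% of all genes), in WT with the Hnrnph2 ASO 8 (8.78%) and in P209L with the Hnrnph2 ASO 8 (8.35%). Lhfpl3 was not called in any of the 4, with limma adjusted p from 0.0647 to 0.264. Bmp4 was called in P209L with the control ASO alone, with log2 differences of -0.57, -0.79, -0.38 and -0.21 in the order of groups above. The values for Gpr17 were -1.65, -1.42, -1.41 and -1.12, and those for Neu4 were -0.91, -0.89, -0.84 and -0.64. Whether the age difference itself depended on genotype or on ASO was tested by interaction terms, and none of the 10 genes was called in either (limma smallest adjusted p 0.681 and 1, both for Gpr17; 0 with an unadjusted p under 0.05). Over all genes, 0% were called in both. For Gpr17 these terms were 0.26 and 0.27 on the log2 scale, each with an SE of 0.148.

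Some calls within a single group rested on 1 library. In WT with the control ASO, Pdgfra was no longer called without replicate 2 at 8 weeks (limma adjusted p 0.0691) or replicate 1 at 3 weeks (0.0554). In P209L with the control ASO the count fell from 9 to 5 without replicate 1 at 3 weeks, where Pdgfra, Olig2, Bmp4 and Vcan had limma adjusted p of 0.115, 0.104, 0.073 and 0.0511. In the same group Pdgfra also lost its call without replicate 2 at 3 weeks (0.0835) or replicates 1 or 3 at 8 weeks (0.128 and 0.0623). Olig2 lost it without replicate 1 at 8 weeks (0.0503). Bmp4 lost it without any 1 of the 3 libraries at 8 weeks (0.0562 to 0.0619) or without replicate 2 at 3 weeks (0.077). In WT with the Hnrnph2 ASO, Pdgfra lost its call without replicate 1 at 8 weeks (0.11), and Pdgfra and Vcan lost theirs without replicate 3 at 3 weeks (0.164 and 0.079). In P209L with the Hnrnph2 ASO, Pdgfra lost its call without replicate 1 at 8 weeks (0.0562) or either library at 3 weeks (0.0553 and 0.0749), and Olig2 without replicate 1 at 3 weeks (0.17). Lhfpl3 gained a call without replicate 2 of control WT at 3 weeks (0.0138) and without replicate 3 of P209L with the Hnrnph2 ASO at 8 weeks (0.037). Gpr17, Neu4, Olig1, Sox10 and Cspg4 kept their calls in all 4 groups whichever library was left out. With only the compared groups fitted, most calls in P209L with the Hnrnph2 ASO were lost. Gpr17, Neu4, Olig1 and Cspg4 there had limma adjusted p of 0.0544, 0.0685, 0.0554 and 0.0847, and Pdgfra, Olig2 and Vcan 0.119, 0.128 and 0.0563. In that fit Pdgfra (0.125), Cspg4 (0.0925) and Vcan (0.0978) also lost their calls in WT with the control ASO, and Pdgfra (0.0936) and Vcan (0.072) in WT with the Hnrnph2 ASO.

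Gpr17 fell further than the other 9 genes, which can be seen within each library as a ratio of TPM. Gpr17 over Pdgfra was 1.77 ± 0.337 at 8 weeks (SD, n = 12) and 3.27 ± 0.699 in the P209L cohort at 3 weeks (SD, n = 11). Libraries at 8 weeks ran from 1.30 to 2.49 and those at 3 weeks from 1.98 to 4.20, so the groups overlapped. Gpr17 over Sox10 did not overlap, with 0.482 to 0.848 at 8 weeks and 0.897 to 1.32 at 3 weeks. Gpr17 over Neu4 changed the least, from 5.09 to 8.82 at 3 weeks to 4.54 to 6.22 at 8 weeks. The log2 change of the ratio was -0.49 against Neu4, -0.72 against Vcan and between -0.85 and -1.19 against the other 7 genes. The 9 ratios share Gpr17 and were chosen after its values were seen, so they are given as a description with no test. In the R206W cohort at 3 weeks the ratio of Gpr17 to Pdgfra was 3.34 to 5.60, above every 8-week library, and the ratio to Sox10 was 0.974 to 1.42.

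**Figure D3:**
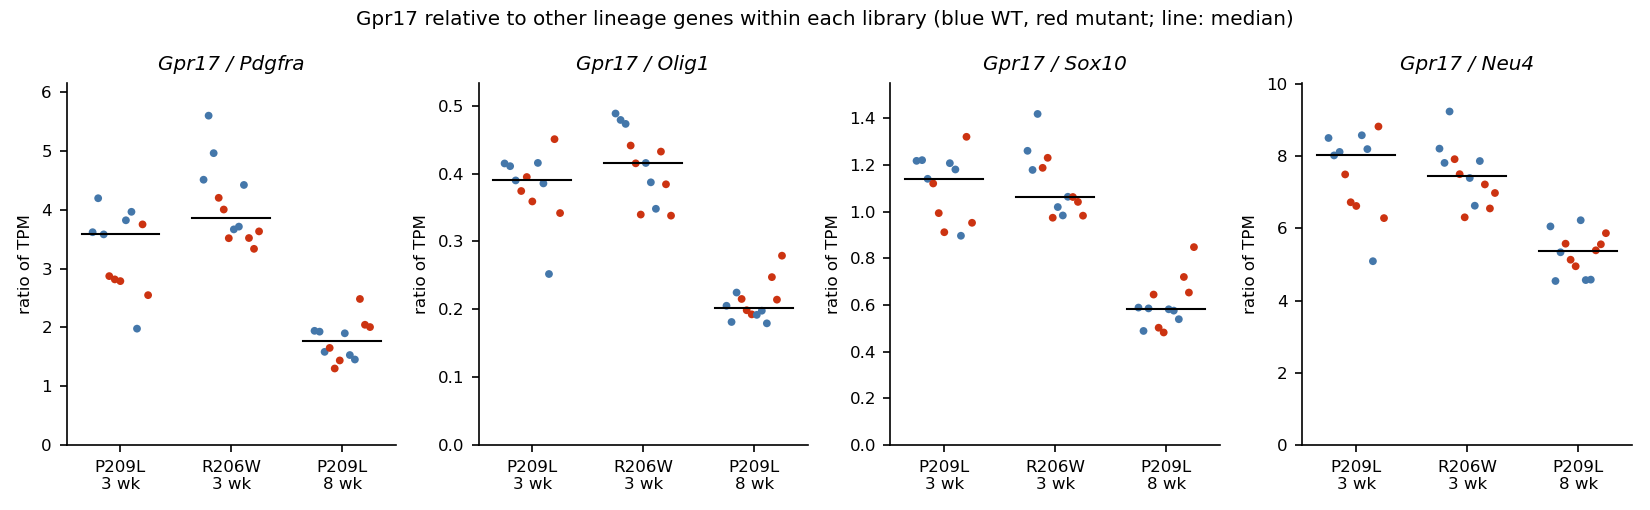
Ratio of Gpr17 TPM to that of Pdgfra, Olig1, Sox10 and Neu4 within each library (y axes, starting at 0) by cohort on the x axis. Points are libraries, blue for WT and red for mutants, and lines are medians. For Sox10 the 8-week libraries (0.482 to 0.848) lie below all 3-week libraries, while for Neu4 they overlap those of the P209L cohort at 3 weeks.

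The shares of further lineage genes called in the average age difference are set against 26.6% of all genes called lower and 15.5% called higher, with a median of -0.03 over all genes. Of 14 further genes of committed precursors and newly formed oligodendrocytes, 12 were called lower at 8 weeks and 1 higher, with a median log2 difference of -0.63. Sirt2, a deacetylase of myelinating cells, differed by -1.22 (SE 0.042, limma adjusted p 1.43e-17), Zfp488 by -1.09, Rras2 by -0.91 and Fyn, a kinase of early differentiation, by -0.65. The 1 higher gene was Bcas1, named after its value was seen, at 0.32 (SE 0.055, limma adjusted p 3.43e-05). Of 16 further precursor genes, 6 were called lower and 1 higher, with a median of -0.22, and their summed level overlapped between 8 weeks (451.96 to 575.85 TPM) and the P209L cohort at 3 weeks (512.8 to 630.4 TPM). Emid1 differed by -0.78, Matn4 by -0.39, the SoxE factor Sox8 by -0.38 and the channel subunit Cacng4 by -0.36, while Luzp2, named as the 1 higher gene, differed by 0.19 (limma adjusted p 0.0314). The 2 lists were not tested against each other.

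Myelin genes were also lower at 8 weeks. Of 20 myelin genes, 14 were called lower and 3 higher, with a median log2 difference of -0.91. Cldn11, a tight junction protein of myelin, differed by -1.32, Mog by -1.16 and Cnp by -0.94. The summed level of the 20 genes was 7225.1 to 10519 TPM at 8 weeks and 14191 to 18825 TPM in the P209L cohort at 3 weeks, without overlap. The 3 higher genes, Ndrg1 (0.57), Trf (0.55) and Apod (0.29), were named after their values were seen. The part of this shift in the TPM of the 10 precursor genes was not tested. Of other cell types, 2 of 10 astrocyte markers were called higher and 4 lower, 2 and 2 of 10 microglial markers, 1 and 1 of 8 endothelial markers and 1 and 4 of 8 neuronal markers. Genes of dividing cells were near the filter: 6 of 12 passed it, of which Cdk1 (-0.37), Ccna2 (-0.23) and Birc5 (-0.20) were called lower.

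Partners and relatives of the 10 genes are read against the same 26.6% of all genes called lower and 15.5% called higher. Of the 6 genes for PDGF ligands and the other receptors, 5 were called lower, with a median of -0.24. They included Pdgfc (-0.36), Pdgfb (-0.35), Pdgfd (-0.31) and Pdgfrb (-0.17), the receptor of pericytes. In the BMP pathway 5 of 16 genes were called lower and 3 higher, shares near those of all genes, with a median of -0.03, as over all genes. The ligand Bmp2 was lower (-0.32), as was the antagonist Nog (-0.13). Id4, a target that blocks differentiation, was higher (0.28), and so was the ligand Bmp6 (0.23). Among 9 matrix genes related to Vcan or binding such proteoglycans, 6 were called lower and 2 higher. Hapln1 (-0.75), Ncan (-0.69) and Bcan (-0.24) were lower, and the link proteins Hapln4 (0.67) and Hapln2 (0.56) were higher. None of the 3 other sialidase genes was called (limma), and 1 of 3 tested genes of the Lhfpl family was, Lhfpl4 (-0.28).

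The 2 cohorts at 3 weeks allowed WT libraries of the same age and ASO to be compared, R206W cohort minus P209L cohort. Of the 10 genes 2 were called lower in the R206W cohort, where 16.2% of all genes were. Pdgfra had a mean of 15.87 TPM in the R206W cohort and 20.94 TPM in the P209L cohort (log2 difference -0.38, SE 0.099, limma adjusted p 0.00771). Olig1 had means of 163.2 and 191.6 TPM (log2 difference -0.23, SE 0.049, limma adjusted p 0.00217). Olig2 was not called (-0.18, limma adjusted p 0.0701) but was called without replicate 2 of the P209L cohort's WT with the control ASO (0.0461). For Gpr17 the difference was -0.03 (95% interval -0.24 to 0.18) and for Neu4 -0.06. All 12 cerebellar markers were higher in the R206W cohort, with a median of 0.59. A covariate was made as their mean log2(TPM + 1), each marker first scaled to a common mean and spread. With it neither Pdgfra (-0.39, limma adjusted p 0.261) nor Olig1 (-0.19, limma adjusted p 0.261) was called. Summed marker levels of WT did not overlap between the cohorts (829.38 to 1084 and 1317.3 to 1829 TPM). Covariate and cohort can thus hardly be told apart in this fit, and the part of cerebellar tissue in these differences was not tested. Of the 10 leptomeningeal markers, 5 were called higher, where 10.9% of all genes were.

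The choice of the 3-week cohort moved the size of the age difference for these genes. With WT of the R206W cohort as the 3-week group, a choice made after seeing the data, Pdgfra differed by -0.27 with the control ASO (limma adjusted p 0.185) and by -0.04 with the Hnrnph2 ASO (limma adjusted p 0.87). With the Hnrnph2 ASO, Olig2 (-0.10, limma adjusted p 0.531) and Vcan (-0.34, limma adjusted p 0.0992) also lost their calls, leaving 5 of 8.

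The effect of the mutations was taken as mutant minus WT with the control ASO, averaged over the 3 cohorts. Olig1 and Gpr17 were called lower in mutants. Of all genes, 1.73% were called lower and 2.55% higher. The median of the 10 genes was -0.11, against 0.01 over all genes tested. No gene of the list was called higher.

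Olig1 in the 8-week cohort was at 121.80, 115.44 and 114.91 TPM in WT and at 97.61, 102.02 and 109.48 TPM in P209L. In the P209L cohort at 3 weeks it was at 201.99, 182.39 and 184.76 TPM in WT and at 163.89, 147.04 and 146.95 TPM in P209L. In the R206W cohort it was at 167.62, 162.39 and 173.04 TPM in WT and at 173.20, 158.39 and 150.15 TPM in R206W. Both P209L cohorts thus had all mutant libraries below all WT libraries, while the R206W cohort overlapped. The average log2 difference for Olig1 was -0.19 (SE 0.040, limma adjusted p 0.00496), and leaving out any 1 of the 18 libraries kept the call (0.00273 to 0.0161). Per cohort the differences were -0.19, -0.31 and -0.06, none of them called (limma adjusted p 0.533, 0.178 and 0.84). The difference between the R206W and P209L values at 3 weeks was 0.25 (SE 0.098, limma unadjusted p 0.0171, adjusted p 1).

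Gpr17 in the 8-week cohort was at 24.99, 20.93 and 25.82 TPM in WT and at 21.01, 20.26 and 21.08 TPM in P209L. In the P209L cohort at 3 weeks it was at 83.80, 74.95 and 72.04 TPM in WT and at 61.34, 58.06 and 52.74 TPM in P209L. In the R206W cohort it was at 81.88, 77.78 and 81.89 TPM in WT and at 76.43, 65.75 and 50.99 TPM in R206W. Both 3-week cohorts had no overlap, and at 8 weeks 1 WT library lay among the mutants. The average log2 difference for Gpr17 was -0.31 (SE 0.083, limma adjusted p 0.0272), with -0.19, -0.42 and -0.34 by cohort. This call was lost without replicate 1 of WT at 8 weeks (0.0552), replicate 1 of WT (0.057) or replicate 3 of P209L (0.0535) in the P209L cohort at 3 weeks, or replicate 3 of R206W (0.0677). It was also lost with no filter on low values (0.0622) and with the cerebellar covariate (0.0599), under which the difference was still -0.31. Lims2, which shares the locus, was called lower as well (-0.30, SE 0.086, limma adjusted p 0.0446).

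The other 8 genes were not called in the average. Bmp4 had the largest value among them at -0.35 (SE 0.127, limma adjusted p 0.124). It was at 8.65, 7.37 and 5.11 TPM in WT and 4.50, 4.63 and 4.73 TPM in P209L at 8 weeks, without overlap. Sox10 differed by -0.16 (limma adjusted p 0.0627) and by -0.16, -0.17 and -0.15 in the 3 cohorts. It was called without replicate 3 of P209L at 8 weeks (0.0245), replicate 3 of WT (0.0408) or replicate 1 of R206W (0.0204) in the R206W cohort. Bmp4 was called without replicate 3 of WT at 8 weeks (0.0494). Neu4 differed by -0.14 (limma adjusted p 0.125). With values rescaled by size factors, Sox10 (0.038) and Neu4 (0.0497) were called too.

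For the other 5 genes the 95% intervals included 0. Pdgfra differed by 0.04 (95% interval -0.12 to 0.21), Cspg4 by 0.06 (-0.03 to 0.14), Lhfpl3 by 0.02 (-0.10 to 0.14), Vcan by 0.04 (-0.13 to 0.21) and Olig2 by -0.07 (-0.20 to 0.05). These intervals do not show that the genes were equal in both genotypes. Within single cohorts none of the 10 genes was called (limma; 0.17%, 0.133% and 0.133% of all genes were, in the 8-week, P209L 3-week and R206W cohorts). An unadjusted p under 0.05 was reached by 2, 4 and 1 of them. Mutants lay below WT without overlap for 2 genes at 8 weeks (Olig1 and Bmp4), for 4 in the P209L cohort at 3 weeks (Olig1, Sox10, Gpr17 and Neu4) and for Gpr17 alone in the R206W cohort. The share of all genes doing so was 3.5%, 11.1% and 5.39%.

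Related lists were called in part, where 1.73% of all genes were called lower in mutants and 2.55% higher. Of the 14 genes of committed precursors and newly formed oligodendrocytes, 5 were called lower in mutants and none higher, with a median of -0.17. They were Chn2 (-0.44, limma adjusted p 8.07e-05), Lims2 (-0.30), Cnksr3 (-0.29), Bcas1 (-0.26) and Nkx6-2 (-0.22), the last named as the remaining one of 5. Of the 16 further precursor genes, Megf11 was called lower (-0.37, limma adjusted p 0.00319) and Cspg5 higher (0.24, limma adjusted p 0.00381), and the median was 0.04. All 20 myelin genes had negative values (median -0.19), and 5 were called lower, Cldn11 (-0.27) and Cnp (-0.24) among them. None of the 6 PDGF, 16 BMP or 6 tested division genes was called (limma). Of the cerebellar markers, 4 were called lower and 1 higher, and of the leptomeningeal markers 2 were called lower, with all 10 negative. The cerebellar sum was 833.43 to 1829 TPM in control WT libraries and 871.5 to 1391.1 TPM in control mutants. The leptomeningeal sum over all cohorts was 147.35 to 247.98 TPM and 136.79 to 199.34 TPM in the same order. In the P209L cohort at 3 weeks the leptomeningeal sum was lower in mutants without overlap, at 136.79 to 182.23 against 192.34 to 203.46 TPM. So it was in the R206W cohort, at 159.53 to 199.34 against 226.34 to 247.98 TPM, while at 8 weeks it overlapped. The summed level of division genes was lower in mutants without overlap in each cohort: 7.30 to 8.47 against 8.80 to 10.26 TPM at 8 weeks, 8.50 to 9.36 against 11.87 to 13.03 TPM in the P209L cohort at 3 weeks and 9.52 to 13.64 against 14 to 15.86 TPM in the R206W cohort. Pericyte sums were also lower without overlap at 3 weeks, at 148.92 to 163.33 against 176.94 to 204.41 TPM in the P209L cohort and 151.87 to 174.56 against 192.18 to 203.84 TPM in the R206W cohort. Endothelial sums did so at 3 weeks too, at 215.21 to 216.89 against 219.72 to 255.17 TPM and 203.49 to 241.41 against 246.98 to 261.54 TPM. At 8 weeks the pericyte and endothelial sums overlapped. In the P209L cohort at 3 weeks other sums were lower in mutants without overlap too. They were those of myelin genes (15130 to 15671 against 16716 to 18825 TPM) and committed-stage genes (921.77 to 1002.8 against 1055.9 to 1149.3 TPM). Microglial markers (265.76 to 290.11 against 303.41 to 337.37 TPM) and markers of immature neurons (936.21 to 1004.6 against 1048.9 to 1061.2 TPM) did the same. All of these overlapped in the other cohorts. Olig1 was called in all 6 alternatives, the cerebellar covariate included (limma adjusted p 0.00507 to 0.011). The part of dividing, pericyte, endothelial, leptomeningeal or the other listed cells in the values of Olig1 and Gpr17 was not tested.

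**Figure D4:**
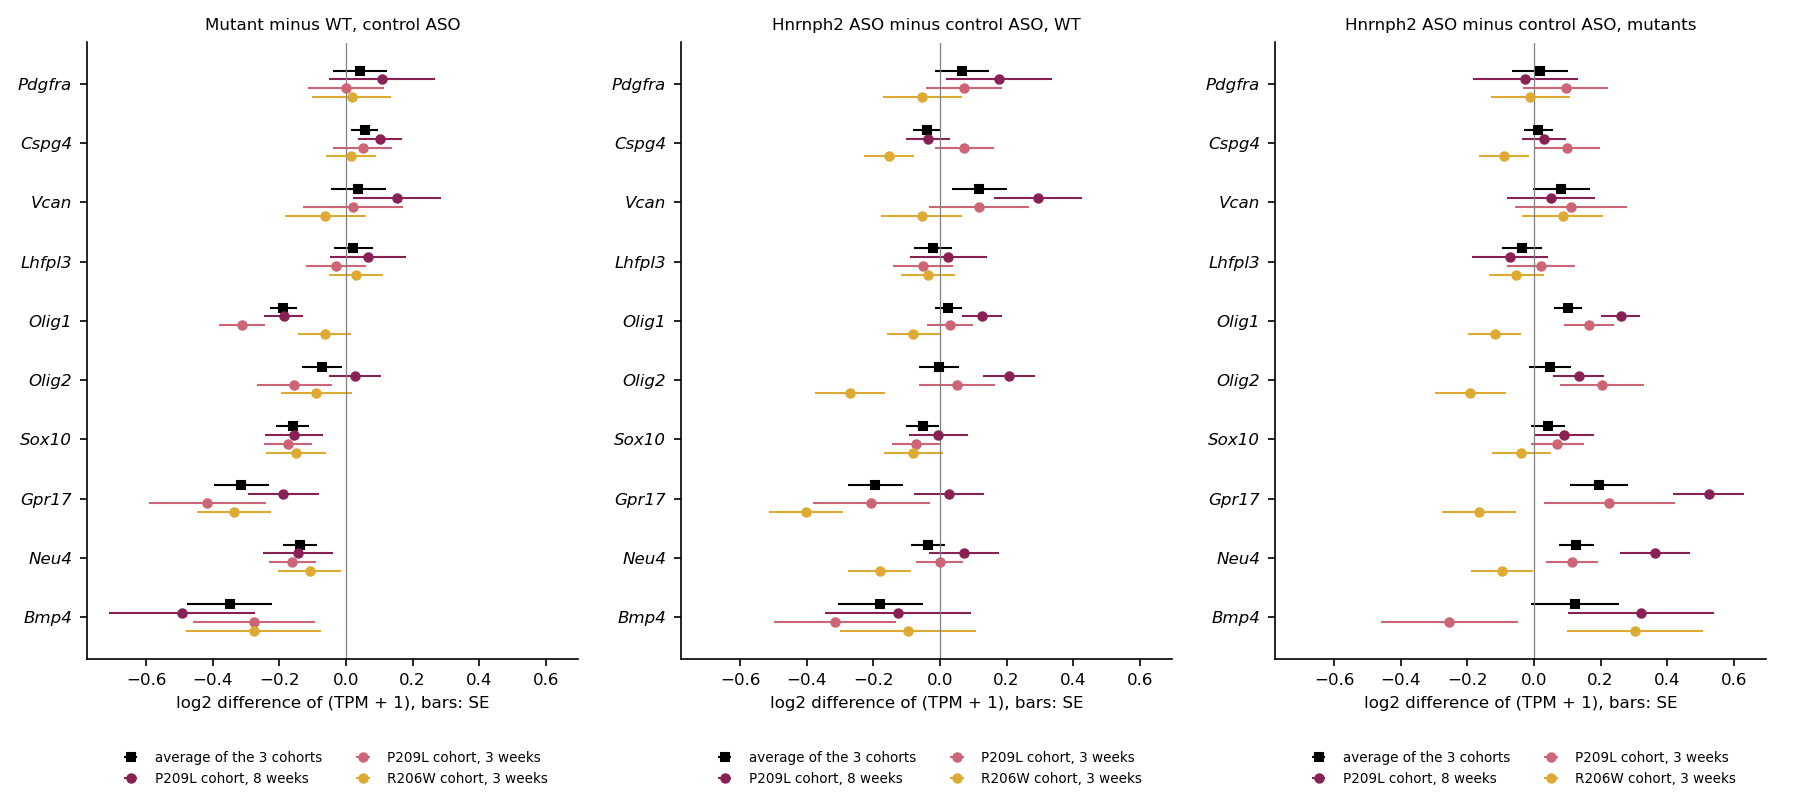
Differences in log2(TPM + 1) on the x axes for each gene on the y axes, with bars of 1 SE: mutant minus WT with control ASO (left), Hnrnph2 ASO minus control ASO in WT (middle) and in mutants (right). Black squares are averages of the 3 cohorts and coloured circles single cohorts. The averages of Olig1 (-0.19) and Gpr17 (-0.31) on the left are the only ones called.

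The Hnrnph2 ASO was next compared with the control ASO in WT, where it lowers normal Hnrnph2. The titles give animal names, and among the libraries at 3 weeks each stem of these names occurred under a single ASO, so stem and ASO cannot be told apart there. Replicate 3 of control R206W, the lowest for Gpr17 in its group, was the only library with its stem. These comparisons use the same control WT libraries as the mutation effect. None of the 10 genes was called in the average over cohorts (limma smallest adjusted p 0.449; 1 had an unadjusted p under 0.05; 0.187% of all genes were called). That gene was Gpr17, at -0.19 (SE 0.083, limma unadjusted p 0.0272), with 0.03, -0.21 and -0.40 in the 8-week, P209L 3-week and R206W cohorts. In the R206W cohort Gpr17 was at 61.49, 62.80 and 57.70 TPM with the Hnrnph2 ASO and at 81.88, 77.78 and 81.89 TPM with the control ASO, without overlap (limma adjusted p 0.524). In the P209L cohort at 3 weeks it was at 77.94, 75.19 and 49.91 TPM, where 2 libraries lay within the control range and replicate 3 far below it.

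By cohort the direction of the non-overlapping genes differed. At 8 weeks Olig1, Olig2 and Vcan were higher with the Hnrnph2 ASO without overlap, where 4.73% of all genes were. Olig2 was at 26.85, 25.60 and 28.85 TPM against 24.70, 22.10 and 23.21 TPM. In the R206W cohort Cspg4, Olig2 and Gpr17 were lower without overlap (8.01% of all genes), with Olig2 at 28.61, 28.88 and 29.77 TPM against 36.98, 33.81 and 35.12 TPM. The P209L cohort at 3 weeks had no such gene among the 10 (5.55% of all genes were higher and 2.93% lower). None of the 10 passed the adjusted test within a cohort (limma; 0.0182%, 0.0121% and 0.0121% of all genes did, and 2, 0 and 2 of the 10 had an unadjusted p under 0.05), and the difference between the cohorts was not tested in WT.

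In mutants, where the ASO lowers the mutant transcript, none of the 10 genes was called in the average (limma smallest adjusted p 0.236; 2.5% of all genes were called). An unadjusted p under 0.05 was reached by 3 genes: Gpr17 (0.19, SE 0.086, limma adjusted p 0.297), Neu4 (0.13, adjusted p 0.253 by limma) and Olig1 (0.10, adjusted p 0.236 by limma). These comparisons share the control mutant libraries with the mutation effect, so a low value there raises the value here. The averages covered cohorts with opposite signs. Gpr17 had 0.52, 0.23 and -0.17 in the 8-week, P209L 3-week and R206W cohorts, and Olig1 had 0.26, 0.17 and -0.12.

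At 8 weeks Gpr17 was at 29.80, 26.39 and 35.42 TPM in treated P209L and at 21.01, 20.26 and 21.08 TPM in control P209L, without overlap. The log2 difference was 0.52 (SE 0.106, limma adjusted p 0.138), and with values rescaled by size factors it was called (adjusted p 0.0427, limma). Olig1 was at 120.44, 123.20 and 126.94 TPM against 97.61, 102.02 and 109.48 TPM (0.26, limma adjusted p 0.209). Neu4 was at 5.53, 4.75 and 6.04 TPM against 3.77, 3.95 and 4.26 TPM (0.36, limma adjusted p 0.379). Bmp4 was also higher without overlap, which made 4 of the 10 genes, where 7.44% of all genes were. The leptomeningeal sum was higher in treated P209L too (175.76 to 186.43 against 150.48 to 162.31 TPM), as was that of division genes (9.98 to 10.78 against 7.30 to 8.47 TPM), both without overlap, and their part in these values was not tested. No gene of the 10 was called within a cohort (limma; 0.0908%, 0.0969% and 0.097% of all genes were, and 3, 0 and 0 of the 10 had an unadjusted p under 0.05).

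At 3 weeks the picture was mixed. With 2 treated P209L libraries, Pdgfra and Neu4 were higher without overlap and Bmp4 was lower, where 12.6% and 12.5% of all genes were. Gpr17 in the 2 treated libraries was at 81.72 and 55.15 TPM, the first above and the second within the control mutants' 52.74 to 61.34 TPM. In the R206W cohort no gene of the 10 was free of overlap, where 5.11% of all genes were higher and 5.8% lower in this way. Gpr17 there was at 58.93, 54.61 and 56.09 TPM treated and at 76.43, 65.75 and 50.99 TPM with the control ASO. Tests of the difference between cohorts called none of the 10 genes (limma smallest adjusted p 1; 0% of all genes). For Olig1 the R206W cohort minus the P209L cohort at 3 weeks was -0.28 (limma unadjusted p 0.0108, adjusted p 1).

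Bmp4 in R206W with the Hnrnph2 ASO was at 15.35, 9.40 and 8.73 TPM. Replicate 1 held the highest Bmp4 level of all 35 libraries and also the highest leptomeningeal sum, 336.96 TPM against 180.92 and 208.37 TPM in the other two, and the part of those cells in the Bmp4 level was not tested.

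The response to the ASO was tested for dependence on genotype by the interaction term, averaged over cohorts. None of the 10 genes was called (limma smallest adjusted p 0.293; 2 had an unadjusted p under 0.05; 0.302% of all genes were called). Gpr17 had the largest value, 0.39 (SE 0.120, limma unadjusted p 0.00318, adjusted p 0.293), positive in all 3 cohorts at 0.50, 0.43 and 0.24. The term reuses the control WT and control mutant libraries of the mutation effect, where Gpr17 was called lower. A low value in control mutants thus raises the term, and its sign is not separate evidence. Neu4 had 0.16 (limma adjusted p 0.643).

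Mutants and WT were also compared when both had received the Hnrnph2 ASO. None of the 10 genes was called (limma smallest adjusted p 0.241; 2 had an unadjusted p under 0.05; 0.67% of all genes were called). Gpr17 differed by 0.08 (95% interval -0.10 to 0.25) and Olig1 by -0.11 (-0.20 to -0.03). Treated mutants against WT with the control ASO gave no call either (limma smallest adjusted p 0.2; 2 had an unadjusted p under 0.05; 4.83% of all genes were called). There Olig1 differed by -0.09, Sox10 by -0.12 and Gpr17 by -0.12 (95% interval -0.30 to 0.06). In this comparison 9 of the 20 myelin genes were called lower, with a median of -0.25, and 3 of the 14 committed-stage genes, Chn2, Bcas1 and Cnksr3. Of all genes, 2.12% were called lower.

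The genes lie apart in the genome except for Olig1 and Olig2, which are neighbours on chromosome 16 of mm10, at 91269769 to 91271939 and 91225550 to 91228677. Pdgfra (75151322 to 75198206) and Lhfpl3 (22746054 to 23275597) are both on chromosome 5. Cspg4 is on chromosome 9 (56865104 to 56899870), Sox10 on chromosome 15 (79154913 to 79164490), Gpr17 on chromosome 18 (31942999 to 31949890), Neu4 on chromosome 1 (94020493 to 94028334), Bmp4 on chromosome 14 (46383525 to 46390669) and Vcan on chromosome 13 (89655309 to 89743027). These are whole gene spans from RefSeq. Apart from Lims2 at Gpr17, the annotated genes that overlap them and were in the table had a mean under 1 TPM.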

How the data were processed

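RNA from 35 brain libraries was measured with a stranded total-RNA kit, per the labels. The authors deposited TPM values for 55573 genes. Per the submitters' processing notes, the tools were STAR 2.7.1a, RSEM, Trim Galore and GATK 4.0.4.0, with build mm10; annotation, filters and strand setting are not given in the sources used here. Groups came from the labels, and WT libraries at 3 weeks were placed in a cohort by the number series of the libraries, which the titles give. Tests used log2(TPM + 1), which understates changes of low genes, for genes that averaged 1 TPM or more in a fit's libraries, with limma 3.58.1 in R 4.3.3 (trend, two-sided, Benjamini-Hochberg over all genes tested). Averages, age and cohort differences came from 1 fit of all 35 libraries with 12 group means, and other values from a fit of 1 cohort. The 10 genes and the related lists were chosen with earlier results of these data known. All 10 were tested in every contrast, but outside the average age and mutation effects the text gives values for only some of them. From each other list, up to 4 called genes with the smallest p were chosen. A few genes chosen this way are left out of the text. The tests were first tried on simulated data with known changes. For a log2 change of 0.3, the average mutation effect called 66 of 100 changed genes in the right direction. The mutation effect in the P209L cohort at 3 weeks called 7 of 100, and 91 of 100 for a change of 1. A missing call within 1 cohort thus says little about changes near 0.3. Alternatives covered the pseudocount (0.1), the filter, rescaling by size factors, a replicate block, the compared groups alone, a cerebellar covariate and leaving out each library. For the mutation effect in the R206W cohort, the stem of the animal names was also used as a block, which gave no call among the 10 genes. Cohort interactions, the R206W cohort as the 3-week group and the Gpr17 ratios were added after seeing the data. RefSeq of the same build gave coordinates, with 38416 of 55453 symbols found. No sequences are shown.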

Additional observations from a re-analysis of the deposited data

How the results depend on the processing

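The average age difference of all 10 genes kept its direction and call in 23 fits without 1 library each and under 6 alternatives. In the limma fits of single groups, the count of called genes was less steady. With only the compared groups fitted it was 5 in WT with the control ASO and 1 in P209L with the Hnrnph2 ASO, where fewer libraries gave the spread. With WT of the R206W cohort as the 3-week group it was 5 in WT with the Hnrnph2 ASO, and the cause was not tested. Leaving out 1 library gave 7 to 9, 5 to 9, 6 to 8 and 6 to 9 in the 4 groups. For the average mutation effect, the 2 called genes became 1 with no filter on low values, 4 with rescaled values and 1 with the cerebellar covariate, and 1 to 3 when 1 library was left out. For the Hnrnph2 ASO in P209L at 8 weeks, rescaled values called 1 gene, and for the cohort difference at 3 weeks the cerebellar covariate left 0. The causes of these were not tested. Same-numbered libraries deviated together, with every pair over 0.1, only for treated mutants against control WT at 8 weeks (lowest 0.123) and in the R206W cohort (0.104). The replicate block left 0 genes called in that average, gave 9 called genes for age in WT with the control ASO, where Bmp4 was added (limma adjusted p 0.0427), and kept 10 for the average age difference and 2 for the mutation. It added Olig2 (limma adjusted p 0.0478) to the cohort difference, as did the compared groups alone (0.022), which also added Bmp4 (0.0401) to the average mutation effect. Over all genes, the 708 calls of the average mutation effect became 1164 without replicate 3 of WT with the control ASO at 8 weeks. The 31 calls of the ASO in WT became 53 with the block and 20 with the compared groups alone, and the 414 in mutants fell by 205 without replicate 2 of treated P209L at 3 weeks. The 111 calls of the mutation under the Hnrnph2 ASO became 23 with the compared groups alone and 21 to 303 without 1 library. The 799 of treated mutants against control WT became 372 and 223 to 1198 in the same order. The 4482 of the cohort difference became 2 with the cerebellar covariate, 2979 without replicate 1 of control WT in the P209L cohort and 2685 without replicate 2 of control WT in the R206W cohort. For age, the all-gene counts in control WT (1891), control P209L (1696), treated WT (1955) and treated P209L (2608) became 998 to 2963, 905 to 1391, 1171 to 2141 and 1049 to 2516 without 1 library. They became 270, 384 and 179 with the compared groups alone in control WT, treated WT and treated P209L, and 3267 in control WT with the R206W cohort as the 3-week group. The age difference in P209L minus that in WT went from 0 to 230 calls without replicate 1 of treated P209L at 3 weeks. The mutation counts by cohort (28, 22 and 22) became 5 to 84, 11 to 14 and 10 to 25 without 1 library. With the compared groups alone the 8-week and R206W counts were 2 each, and with the block 16 and 210. The cerebellar covariate left 4 in the R206W cohort, and no filter on low values left 18 at 8 weeks. The counts of the ASO in mutants (15, 16 and 16) became 8 to 12, 11 to 47 and 9 to 43 without 1 library, 28 at 8 weeks with rescaled values, 30 in the P209L cohort at 3 weeks with no filter and 67 in the R206W cohort with the block. Those in WT (3, 2 and 2) stayed between 1 and 7. TPM holds no depth, so precision is limited by the 2 or 3 libraries of a group.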

Other observations

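After each group's mean was removed, the 10 genes tended to vary together over the 35 libraries. Of the 45 pairs, 39 had a positive Pearson r, with a median of 0.312. Olig1 and Olig2 had the highest (0.808), followed by Pdgfra and Vcan (0.783), and Pdgfra with Bmp4 had the lowest (-0.201). These are descriptions over libraries that share their TPM scaling, with no test.

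By the same measure the genes most like Pdgfra included Klhl13 (r 0.914), Xpr1 (0.911), Acsl3 (0.907) and Atxn7l3b (0.906), with mean levels of 39.1, 37.4, 110 and 142 TPM. Those most like Gpr17 were Adam19 (0.914), Ednra (0.895), Dhx29 (0.879), Slc22a23 (0.862) and Plxdc2 (0.86). None of those named was among the precursor or committed-stage lists.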
